A study of Mus musculus with 8 samples.

Results

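The genes described here build, cap, cut and recycle actin filaments. A list of 35 such genes was fixed by symbol, and 32 of them had a probe set (a group of short DNA probes read as one value) annotated to that gene alone, out of 18193 genes with such a probe set on the array. Arpc1b was measured only by 2 probe sets shared with another symbol, and Actr2 and Arpc3 had no probe set under their symbol in the annotation used. Each gene was represented by its probe set with the highest mean over all arrays, and all 32 passed the filter on dim probe sets.

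The series measured RNA of the mouse aorta with Affymetrix arrays, 4 from mutants and 4 from controls. The mutants were labelled SRF-flex2neo -SM22CreERT2ki/+. They carry Srf alleles that Cre can delete and a tamoxifen-inducible Cre knocked into 1 allele of Tagln, the gene of SM22, so that deletion takes place in smooth muscle. The controls were SRF-flex2neo littermates, whose label names no Cre. All mice were 4 months old, received 1 mg of tamoxifen on 3 days and were killed 8 days after injection. Srf deletion, Cre activity and the altered Tagln allele come together in the mutants and cannot be told apart. The titles number 2 sets, each with 2 mutants and 2 controls: set 1 holds mutants 1 and 2 and controls 1 and 2, and set 2 holds the others. The labels do not tie arrays to single mice. The p-values therefore reflect the scatter among 8 arrays, part or all of which may be technical.

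Actin filaments grow at their barbed end from monomers that profilin delivers, branch through the Arp2/3 complex, are capped by capping protein, and are severed by cofilin and gelsolin, which returns monomers to the pool. In a smooth muscle cell this turnover runs beside the stable contractile filaments. It also feeds back on transcription: free actin monomers hold some, but not all, cofactors of SRF (serum response factor) inactive. SRF in turn binds the control regions of many actin and actin-binding genes.

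Arrays were on a common log2 scale, with medians of 3.72 to 3.98. Mutant 2 stood apart, with correlations of 0.961 to 0.974 with the other arrays, while those among the other 7 arrays were 0.983 to 0.997. Srf itself had log2 values of 10.21, 9.54, 10.32 and 10.34 in mutants, against 10.52, 10.20, 10.15 and 10.34 in controls. The groups overlapped and the difference was -0.20 (SE 0.19, limma adjusted p = 0.686), -0.01 without mutant 2 and -0.08 without control 1. As the place of this probe set relative to the deleted part is not known here, it does not check the deletion. All 14 smooth muscle markers listed passed the filter on dim probe sets, as did all 20 leukocyte and all 16 endothelial markers, so that passing it does not tell these cells apart. All 14 smooth muscle markers were lower in mutants (median -0.25). They include Tagln, whose allele is altered in the mutants, and actin genes, of which SRF binds many, so they do not measure these cells apart from the genotype. Of the striated muscle markers tested, 10 of 12 were lower too (median -0.21). Leukocyte markers were higher in 20 of 20, endothelial markers in 15 of 16, fibroblast markers in 10 of 12 and fat markers in 9 of 9 tested. In the mean of the fat markers, and in that of the endothelial markers, only the set 1 mutants lay above all controls. In whole-tissue RNA, fewer cells of a type and less RNA per cell cannot be told apart.

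Among the 32 actin turnover genes, 15 were higher, 16 lower and 1 equal in mutants, and the median difference was -0.01 on the log2 scale, against -0.02 over all 12176 genes tested. None passed adjustment over all probe sets in limma's test with the set as a block (smallest adjusted p = 0.431), and 0 of all genes did (0%). At an unadjusted p under 0.05 there were 11 of 32, against 10.4% of all genes. Of these, 6 were higher, where all genes gave 5.8%: Coro1a, Lima1, Gsn, Tmsb10, Capg and Cfl1. The other 5 were lower, where all genes gave 4.6%: Pfn1, Vasp, Cfl2, Diaph2 and Capza2. Among the fits with 1 array left out the count was 8 without mutant 2 and lowest, at 6, without control 1, and it was 6 in set 1 alone and 3 in set 2 alone. Cfl1, Cfl2, Pfn1, Tmsb10, Gsn and Vasp had an unadjusted p under 0.05 in all 8 fits with 1 array left out, Diaph2 in 5, Coro1a in 4, Capg and Lima1 in 3 each and Capza2 in 2. The size of the typical difference, regardless of sign, was 0.32 for these genes and 0.13 for all genes. The filter kept probe sets down to a mean of 2.97, and most of these genes lie well above that. Neither this comparison nor the shares above were matched for expression level. The list was chosen with results of these data known, so these counts describe it and test nothing. The plot of differences by role shows the genes side by side.

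**Figure D1:**
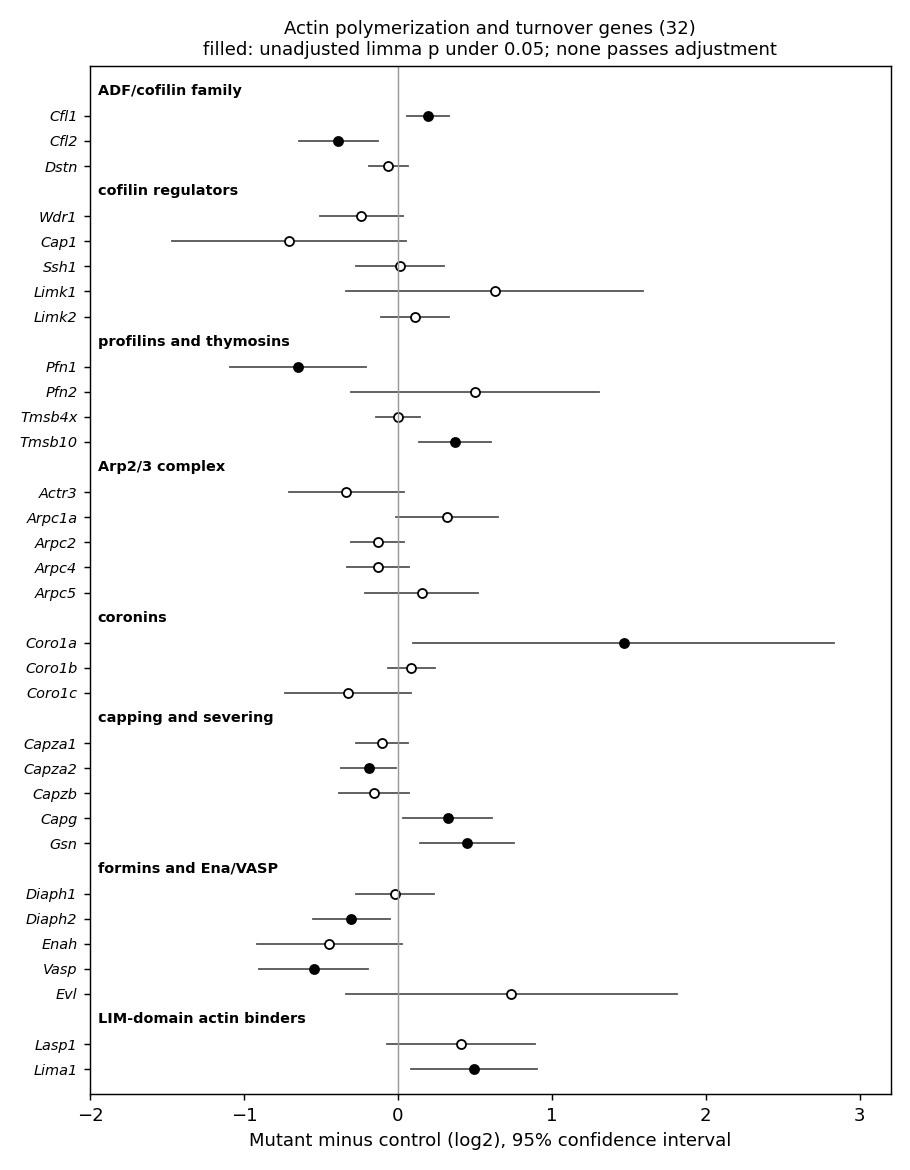
Mutant minus control difference (horizontal axis, log2) of each of the 32 genes, grouped by role, with 95% confidence intervals from limma. Filled points have an unadjusted p under 0.05. The genes spread to both sides of 0, from -0.71 for Cap1 to 1.47 for Coro1a, and the widest intervals belong to Coro1a, Evl, Limk1, Pfn2 and Cap1.

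The ADF/cofilin family severs filaments and pulls monomers off their slow end. Cfl2, the muscle cofilin, had log2 values of 12.24, 12.06, 11.85 and 12.16 in mutants, against 12.78, 12.41, 12.32 and 12.35 in controls. Every mutant lay below every control. The difference was -0.39 (SE 0.11, limma adjusted p = 0.443), a 0.764-fold level, and it was -0.45 in set 1 and -0.33 in set 2. Its other tested probe sets gave -0.54 and -0.35. Cfl1, the cofilin of non-muscle cells, had values of 13.95, 14.02, 14.22 and 14.06 in mutants, against 13.75, 13.85, 13.93 and 13.94 in controls. Here every mutant lay above every control, by a small margin, and the difference was 0.20 (SE 0.06, limma adjusted p = 0.451). That probe set carries the manufacturer's suffix for probes that may also match other transcripts. The other Cfl1 probe set gave -0.11 (SE 0.09), so the direction of Cfl1 depended on the probe set. Dstn, which encodes destrin, the third of the family, differed by -0.06 (95% confidence interval -0.19 to 0.06), and by -0.04 without control 3.

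Of all 32 genes, 4 had groups that did not overlap, where 3.84% of all genes did. With mutants above controls there were 2, Cfl1 and Tmsb10 (2.06% of all genes), and with mutants below there were 2, Cfl2 and Pfn1 (1.77% of all genes). Pfn1 and Tmsb10 act on the monomer pool. Pfn1 encodes profilin 1, which hands ATP-bound monomers to growing ends. It had log2 values of 12.01, 11.47, 11.44 and 11.84 in mutants, against 12.75, 12.11, 12.13 and 12.37 in controls. All mutants lay below all controls, and the sets gave like differences of -0.69 in set 1 and -0.61 in set 2. The fitted difference of -0.65 (SE 0.19, limma adjusted p = 0.444), a 0.637-fold level, ranged from -0.77 to -0.51 when each array was left out in turn. Pfn2, the second profilin, was at 9.94, 11.48, 9.50 and 9.56 in mutants, against 9.76, 9.78, 9.50 and 9.44 in controls. Its difference of 0.50 (SE 0.34) came mostly from mutant 2 and was 0.10 without it.

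Thymosins bind monomers and keep them from filaments. Tmsb10 had log2 values of 13.67, 14.02, 13.69 and 13.56 in mutants, against 13.39, 13.29, 13.38 and 13.39 in controls. The controls lay close together and all mutants were above them. The difference was 0.37 (SE 0.10, limma adjusted p = 0.431) and 0.28 without mutant 2. All 5 of its tested probe sets were higher. The brightest and 3 others carry suffixes for probes that may also match other transcripts, and the only one without, which is the dimmest, gave 0.06 (95% confidence interval -0.16 to 0.28). That dimmest probe set had a mean of 3.25, close to the lowest mean kept by the filter (2.97), so it says little about size. The others beside the brightest gave 0.48, 0.56 and 0.17, the last from a probe set with a mean of 3.90. Tmsb4x, the more widely studied thymosin, had a difference of 0.00 (95% confidence interval -0.14 to 0.14). Its values of 14.95 to 15.17 in mutants and 15.05 to 15.15 in controls are near the top of the table's range (15.82), where the array may respond less to more RNA.

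**Figure D2:**
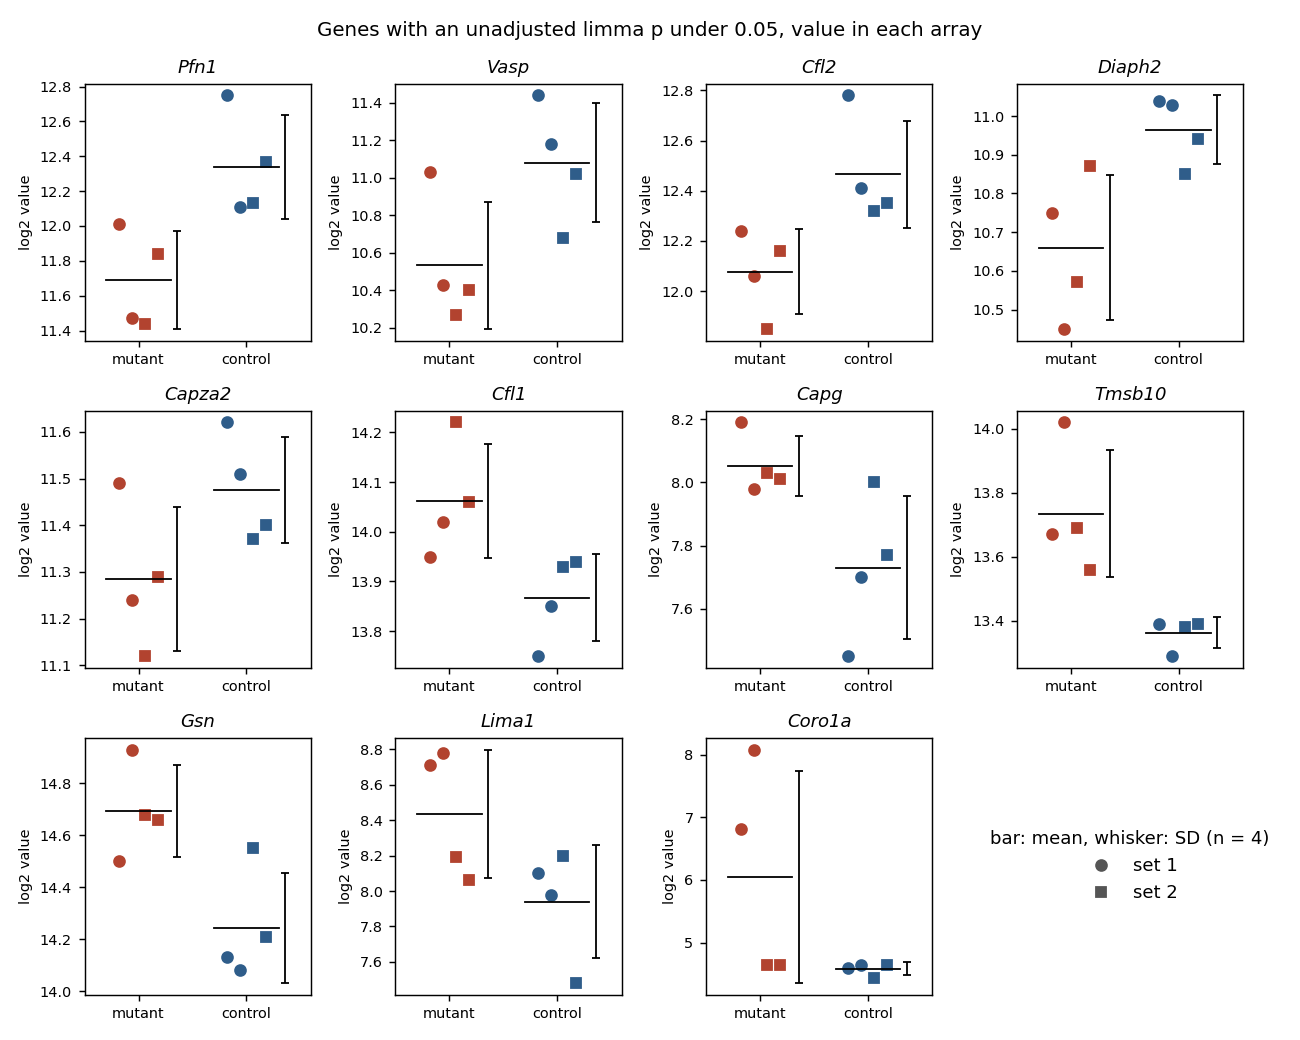
Log2 value (vertical axis) in each array of the 11 genes with an unadjusted limma p under 0.05, mutants at left and controls at right, circles for set 1 and squares for set 2. Horizontal bars are means and whiskers SD (n = 4 arrays). Groups do not overlap for Pfn1, Cfl2, Cfl1 and Tmsb10, and the 2 high mutants of Coro1a are both in set 1.

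Genes that steer cofilin gave smaller or less steady differences. Wdr1 encodes AIP1, which speeds disassembly of cofilin-bound filaments. It was at 12.14, 11.80, 11.95 and 12.17 in mutants, against 12.43, 12.06, 12.24 and 12.28 in controls. Each set had both its mutants below the mean of its controls, with differences of -0.28 in set 1 and -0.20 in set 2 and of -0.24 over both (SE 0.11, limma adjusted p = 0.556). Without control 1 it was -0.16. Its other probe sets gave -0.34 and -0.39. The LIM kinases, which switch cofilin off, differed by 0.63 (Limk1, SE 0.41) and 0.11 (Limk2, SE 0.09, 0.06 without mutant 2). Limk1 was at 6.65 in mutant 2 and at 4.85 to 5.14 in the other mutants, against 4.41 to 5.04 in controls, and its difference was 0.19 without mutant 2. Ssh1, a phosphatase that switches cofilin back on, differed by 0.01 (SE 0.12) in its brightest probe set and by -0.22 and -0.02 in the others.

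Cap1, which encodes a cyclase-associated protein that helps recycle monomers from cofilin, differed more between sets than between groups. It was at 12.06 and 10.83 in the set 1 mutants and 6.95 and 7.50 in the set 2 mutants. The set 1 controls were at 12.54 and 11.82 and the set 2 controls at 8.24 and 7.57. The difference of set 2 minus set 1 was -4.25 (SE 0.32, limma adjusted p = 0.000697), and of the 12176 genes tested only 5 had a larger difference between sets. The other Cap1 probe set gave -4.61. The labels do not explain the sets, and the cause was not tested. Between mutants and controls, Cap1 differed by -0.71 (SE 0.32, limma adjusted p = 0.546), by -0.74 in set 1 and -0.68 in set 2, and by -0.46 without mutant 2.

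By the set term of the fit on brightest probe sets, 4 of the 32 genes passed the adjusted threshold of 0.05, where 16.6% of all genes did. Besides Cap1 these were Ssh1 (-0.91, set 2 minus set 1), Arpc2 (0.46) and Capzb (-0.42), and without mutant 2 there were 8. Dimmer probe sets of further genes passed too, so the count understates the genes with a set difference. Among these were Diaph2 (1.41, limma adjusted p = 0.000697), Cfl1 (-0.70, limma adjusted p = 0.00267) and Capza2 (-0.585, limma adjusted p = 0.00681). For Coro1c, dimmer probe sets passed in opposite directions (-0.78 and 0.86). The effect in mutants differed between sets in 0 of 32 by limma's interaction term, where 0.0575% of all genes did. At an unadjusted p under 0.05 there was 1, Coro1a, with a difference of set 2 minus set 1 of -2.71 in the effect (limma adjusted p = 0.536). Its second probe set did pass, with -3.16 (limma adjusted p = 0.0413), and was the only 1 of the 80 tested probe sets of these genes to do so, where 0.0518% of all probe sets did. Signs were the same in each set taken alone for 28 of 32 genes, where 55.3% of all genes had the same sign in both. Pfn1, Vasp, Cap1 and Actr3 had differences of like size in both sets, while those of Coro1a, Evl, Pfn2 and Limk1 were mostly in set 1. Their values by set are in the plot of both sets.

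**Figure D3:**
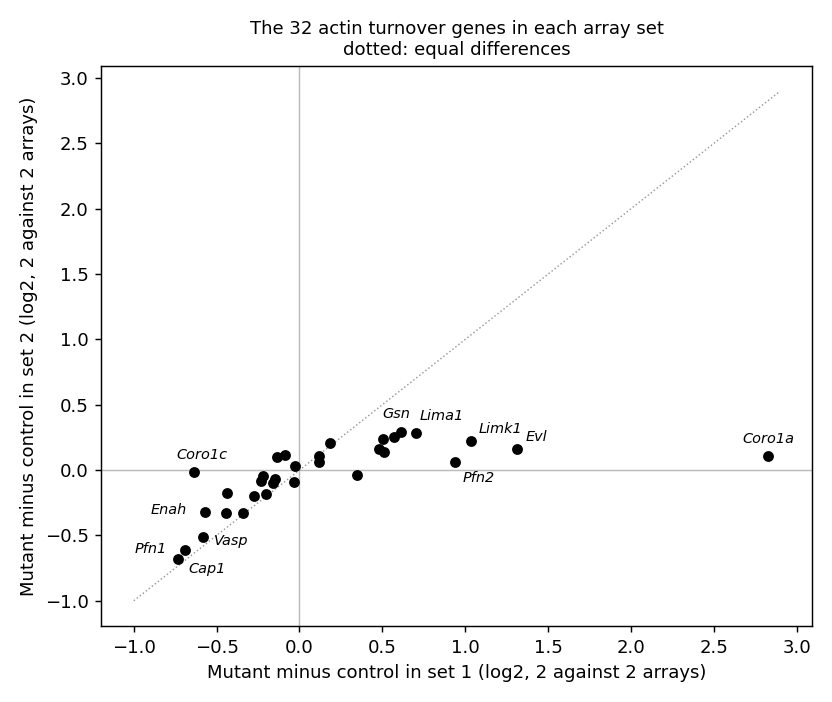
Mutant minus control difference (log2) of the 32 genes in set 1 (horizontal axis) and in set 2 (vertical axis), each from 2 mutants and 2 controls. The dotted line marks equal differences. Cap1, Pfn1 and Vasp lie close to it, at -0.74, -0.69 and -0.58 in set 1 and -0.68, -0.61 and -0.52 in set 2, while Coro1a was 2.83 in set 1 and 0.11 in set 2.

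The Arp2/3 complex seeds new filaments as branches on old ones. Of its 8 listed genes 5 could be read, and none of these 5 had an unadjusted p under 0.05 in its brightest probe set. A dimmer probe set of Actr3 (limma unadjusted p = 0.0455) and a dimmer probe set of Arpc4 (limma unadjusted p = 0.0388) did, and neither passed adjustment. Actr3, an actin-related subunit at the core of the complex, was lower by a difference of -0.34 (SE 0.16), with -0.34 in set 1 and -0.33 in set 2. It was at 12.24, 11.93, 12.13 and 12.70 in mutants, against 12.57, 12.28, 12.56 and 12.93 in controls, so within each set both mutants were below the control mean. Without mutant 3 the difference was -0.22. The other probe sets of Actr3 gave -0.19 and -0.30. The subunits Arpc2 and Arpc4 differed by -0.13 each (SE 0.07 and 0.09). Arpc2 was at -0.07 without mutant 2, and Arpc4 at -0.07 without control 1 and -0.09 without mutant 2. Their other probe sets gave larger differences, -0.41 (95% confidence interval -1.03 to 0.20) for Arpc2 and -0.29 (95% confidence interval -0.57 to -0.02) for Arpc4. Arpc1a differed by 0.32 (SE 0.14) and Arpc5 by 0.16 (SE 0.15), and these became 0.17 and 0.04 without mutant 2. Without control 2, Arpc5 was at 0.02, and without mutant 3 at 0.24. The subunits did not share a direction.

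Coronins bind filaments and act on Arp2/3 branches. Coro1a, the coronin of blood cells, was at 6.81, 8.08, 4.65 and 4.65 in mutants, against 4.59, 4.65, 4.43 and 4.65 in controls. Only the set 1 mutants stood above the rest, and the set 2 mutants were level with controls. The fitted difference of 1.47 (SE 0.58, limma adjusted p = 0.51) was the highest of the 32, and was 0.94 without mutant 2. Its second probe set, with the same 2 mutants high, gave 1.70. The mean of the 20 leukocyte markers, relative to its mean over all arrays, was 1.54, 1.16, -0.17 and -0.01 in mutants, against -0.69, -0.96, -0.18 and -0.70 in controls. The set 1 mutants were the highest arrays for leukocyte markers and for Coro1a, but in leukocyte markers the set 2 mutants too lay above all controls. In endothelial and fat markers, as in Coro1a, only the set 1 mutants did. The part of any of these cells in the values of Coro1a was not tested. Coro1c, a widely expressed coronin, differed by -0.32 (SE 0.17), with -0.64 in set 1 and -0.02 in set 2, and by -0.16 without mutant 2. Coro1b differed by 0.09 (SE 0.06).

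Capping protein, a pair of alpha and beta chains, closes barbed ends. All 3 genes of it were lower. Capza2 was at 11.49, 11.24, 11.12 and 11.29 in mutants, against 11.62, 11.51, 11.37 and 11.40 in controls, with overlap between the groups but not within a set. Its difference was -0.19 (SE 0.07, limma adjusted p = 0.51) and was alike in both sets, at -0.20 and -0.18. Capza1 differed by -0.10 (SE 0.07), by -0.065 without control 4 and by -0.16 without control 3. Capzb differed by -0.16 (SE 0.10), by -0.08 without mutant 2 and by -0.09 without control 1. All 7 tested probe sets of these 3 genes were lower in mutants.

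The gelsolin-type proteins went the other way. Gsn encodes gelsolin, a calcium-activated severing and capping protein. It had log2 values of 14.50, 14.93, 14.68 and 14.66 in mutants, against 14.13, 14.08, 14.55 and 14.21 in controls. The groups overlapped only through control 3. The difference was 0.45 (SE 0.13, limma adjusted p = 0.444), a 1.37-fold level, and 0.33 without mutant 2. All 5 tested probe sets were higher, and 2 of them had groups that did not overlap. All but 1, the brightest included, carry the suffix for probes that may also match other transcripts. The only Gsn probe set without it gave 0.47 (SE 0.13), with groups that did not overlap. The dimmest gave 0.115 at a mean of 3.135, close to the lowest mean kept, so it says little about size. Capg, a relative that caps without severing, was at 8.19, 7.98, 8.03 and 8.01 in mutants, against 7.45, 7.70, 8.00 and 7.77 in controls. Again control 3 reached the mutants, and the difference was 0.32 (SE 0.12, limma adjusted p = 0.502). Control 3 also had the highest mean of the controls for fibroblast, leukocyte, fat and striated muscle markers, so it does not single out 1 cell type. The fibroblast mean was 0.43, 0.22, 0.56 and 0.45 in mutants, against -0.49, -0.83, 0.32 and -0.66 in controls, relative to the mean of all arrays. The part of any of these cells in the values of Gsn and Capg was not tested.

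**Figure D4:**
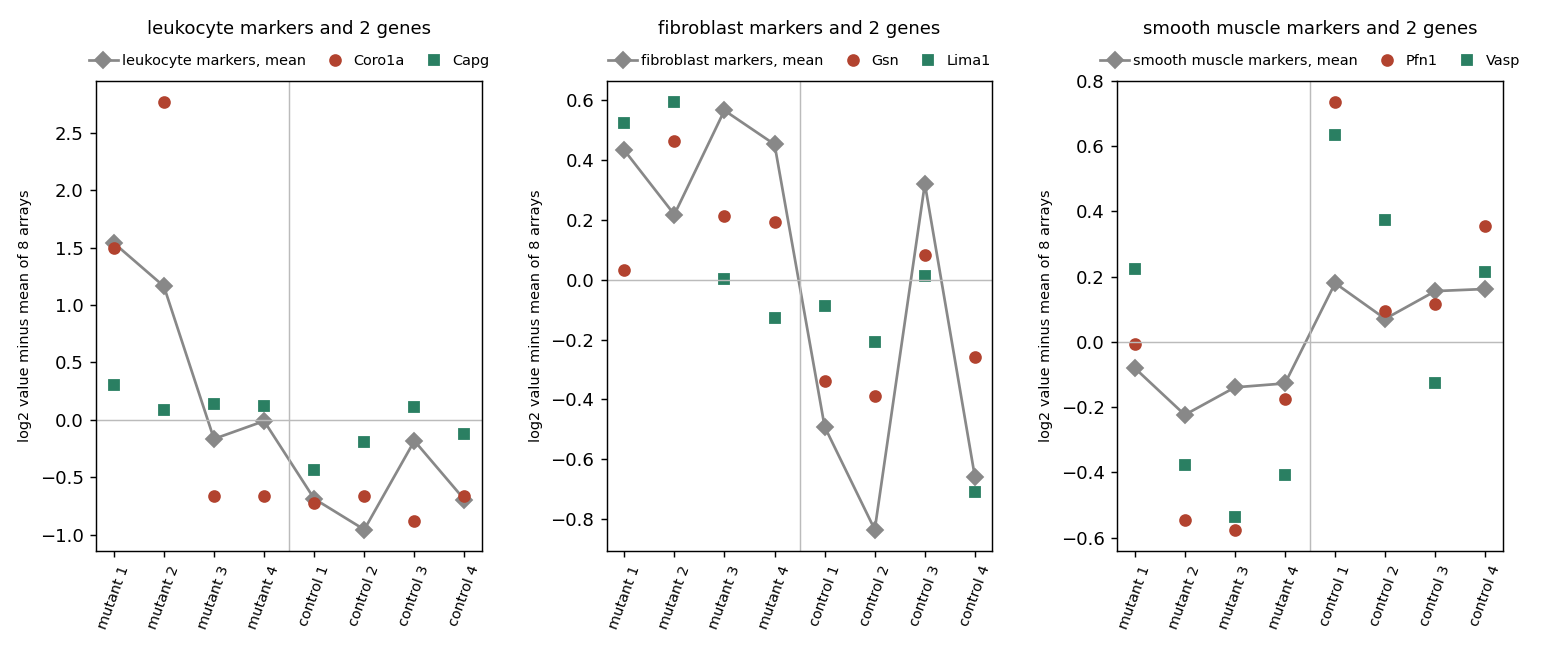
Log2 value minus the mean of the 8 arrays (vertical axis) in each array, for the mean of a marker list (grey diamonds, joined) and 2 genes beside it, from left to right for leukocyte, fibroblast and smooth muscle markers. Coro1a is high in mutants 1 and 2, where leukocyte markers are at 1.54 and 1.16, and control 3, at 0.32, is the only control with a fibroblast mean above 0. Smooth muscle markers are below 0 in all 4 mutants and above it in all 4 controls. Pfn1 is too, though barely in mutant 1 (12.01 against a mean of 12.015), while Vasp is above 0 in mutant 1 and below it in control 3.

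Ena/VASP proteins and formins lengthen filaments at the barbed end. Vasp was at 11.03, 10.43, 10.27 and 10.40 in mutants, against 11.44, 11.18, 10.68 and 11.02 in controls. Mutants lay below controls within each set, and the groups overlapped across sets. The difference was -0.55 (SE 0.15, limma adjusted p = 0.434), a 0.684-fold level, and -0.42 without mutant 2. Enah, the mammalian Enabled protein, was at 13.11, 12.41, 12.88 and 13.15 in mutants, against 13.64, 13.02, 13.24 and 13.43 in controls, so the groups overlapped. Its difference was -0.44 (SE 0.20, limma adjusted p = 0.541), and -0.28 without mutant 2 and -0.30 without control 1. All 6 of its tested probe sets were lower, from -0.75 to -0.44. Evl, the third gene of the family, did not follow. It was at 7.20, 9.22, 6.39 and 6.38 in mutants, against 7.02, 6.78, 6.39 and 6.05 in controls, and its difference of 0.74 (SE 0.45) was 0.22 without mutant 2. Mutant 2 was also the array highest in endothelial and fat markers, at 1.55 and 2.69 relative to the mean of all arrays, where the other arrays were at -0.93 to 0.79 and -1.20 to 0.68. Mutant 2 also stood far above all other arrays in some actin turnover genes outside the list. It was at 8.97 in Avil, 7.6 in Add2 and 6.06 in Coro2b. The other arrays were at 2.53 to 3.13, 2.49 to 2.56 and 2.72 to 2.85. Not all such genes were high there, and in Mical2 it was the lowest array (7.91). Which cells these values come from, and their part in the values of Evl, Pfn2 and Limk1, was not tested.

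Of the diaphanous formins, which start and elongate unbranched filaments, Diaph2 was at 10.75, 10.45, 10.57 and 10.87 in mutants, against 11.04, 11.03, 10.85 and 10.94 in controls. Only mutant 4 overlapped with the controls. The difference was -0.30 (SE 0.11, limma adjusted p = 0.478), with -0.44 in set 1 and -0.18 in set 2. Its other probe set gave -0.185 (SE 0.11), with -0.36 in set 1 and -0.01 in set 2. Diaph1 differed by -0.02 (SE 0.11) in its brightest probe set and by -0.18 and -0.47 in the others.

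The LIM-domain proteins of the list, which bind and bundle filaments, were both higher. Lima1, whose product EPLIN stabilises filaments, was at 8.71, 8.78, 8.19 and 8.06 in mutants, against 8.10, 7.98, 8.20 and 7.48 in controls. The set 1 mutants were the highest arrays and the set 2 mutants overlapped with controls. The difference was 0.50 (SE 0.17, limma adjusted p = 0.48). Probe sets of Lima1 differed in their pattern over sets: the brightest was lower in set 2 (-0.41), while the next 2 probe sets were higher there (0.92 and 0.88) and gave mutant differences of 0.60 and 0.74. Lasp1, a focal adhesion adaptor, differed by 0.41 (SE 0.20), with 0.57 in set 1 and 0.25 in set 2, and by 0.24 without control 1. All 6 of its tested probe sets were higher, from 0.35 to 0.51. Over the list, 80 probe sets were tested, and 20 of the 23 genes with several had all of them on one side of 0. The exceptions were Cfl1, Ssh1 and Lima1.

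**Figure D5:**
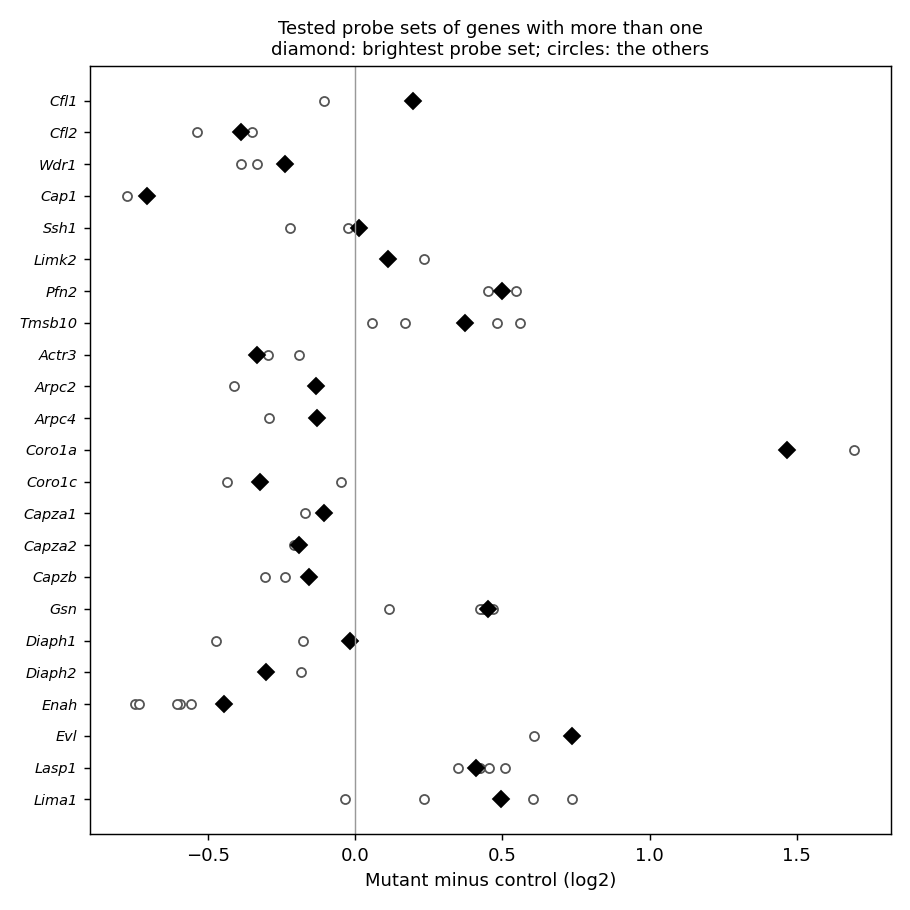
Mutant minus control difference (log2, horizontal axis) of every tested probe set of the 23 genes with more than one, the brightest as a diamond and the others as circles. The 6 probe sets of Enah and the 6 of Lasp1 lie on opposite sides of 0, and those of Cfl1 lie at 0.20 and -0.11.

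As SRF binds a DNA motif called the CArG box, the starts of these genes were searched for it. Promoters from RefSeq (build GRCm38.p6, 250 bases before to 50 after each start) were found for 33 of the 35 genes, 42 promoters in all. The motif reads the same on both strands. An exact match stood in 2 of the 42, Lima1 and Arpc4, where 1.63% of all 32851 promoters hold one. At most 1 letter off, 9 of the 42 matched (21.4%), where 21.1% of all promoters did, so the looser search gave the background rate. The matches of 4 genes are shown, both exact ones and those of Vasp and Gsn as genes that were lower and higher, with the match in capitals. Lima1 (chr15:99820100-99820399, minus strand) has it 47 bases before the start, Arpc4 (chr6:113377863-113378162, plus strand) 250 bases, Vasp (chr7:19271805-19272104, minus strand) 31 bases with 1 letter off, and Gsn (chr2:35256109-35256408, plus strand, the first of its 3 starts) 162 bases with 1 letter off. A match is a description of the letters and not a bound site. Of the genes with exact matches, Lima1 had a difference of 0.50, and Arpc4 of -0.13 in its brightest probe set and -0.29 in the other.
Lima1: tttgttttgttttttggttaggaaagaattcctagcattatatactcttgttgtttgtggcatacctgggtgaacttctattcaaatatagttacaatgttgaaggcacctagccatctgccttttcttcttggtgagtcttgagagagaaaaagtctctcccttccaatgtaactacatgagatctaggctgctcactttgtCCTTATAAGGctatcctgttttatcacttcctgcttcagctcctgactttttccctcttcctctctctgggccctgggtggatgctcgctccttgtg
Arpc4: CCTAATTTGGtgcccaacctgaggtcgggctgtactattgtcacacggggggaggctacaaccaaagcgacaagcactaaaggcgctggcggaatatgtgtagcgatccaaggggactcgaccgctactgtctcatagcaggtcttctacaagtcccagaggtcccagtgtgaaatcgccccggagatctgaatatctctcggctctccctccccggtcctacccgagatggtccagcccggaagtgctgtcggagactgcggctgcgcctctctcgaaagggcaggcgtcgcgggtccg
Vasp: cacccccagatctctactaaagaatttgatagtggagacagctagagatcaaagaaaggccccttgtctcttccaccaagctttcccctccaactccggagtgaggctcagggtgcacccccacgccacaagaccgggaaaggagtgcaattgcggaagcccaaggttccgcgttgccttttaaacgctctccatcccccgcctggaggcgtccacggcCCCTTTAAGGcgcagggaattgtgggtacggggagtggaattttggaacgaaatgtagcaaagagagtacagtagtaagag
Gsn: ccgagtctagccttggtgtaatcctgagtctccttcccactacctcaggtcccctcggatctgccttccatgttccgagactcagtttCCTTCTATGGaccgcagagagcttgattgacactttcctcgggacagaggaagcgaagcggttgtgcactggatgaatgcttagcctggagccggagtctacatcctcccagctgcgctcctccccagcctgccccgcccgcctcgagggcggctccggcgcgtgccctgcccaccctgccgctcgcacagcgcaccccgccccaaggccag

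A second list held other genes of actin turnover, among them nucleation promoters, further formins, bundlers and pointed-end cappers. Of its 63 genes tested, 31 were higher, 31 lower and 1 equal, with a median of 0.00, and 0 passed adjustment in limma. At an unadjusted p under 0.05 there were 13, where 10.4% of all genes were, and of these 8 were higher and 5 lower. The count was 6 without control 1, control 2 or control 4. The 6 with the smallest p went both ways. Mical2, an enzyme that oxidises actin and so dismantles filaments, was at 8.30, 7.91, 8.13 and 7.99 in mutants, against 9.20, 8.64, 8.87 and 8.54 in controls. All mutants were below all controls, and the difference was -0.73 (SE 0.16, limma adjusted p = 0.384). Cobl, a filament nucleator, differed by -0.64 (SE 0.14, limma adjusted p = 0.384). Higher were Add3, an adducin that caps filaments of the membrane skeleton (0.86, SE 0.27), the formin Fmnl2 (0.59, SE 0.18) and Ssh2, a cofilin phosphatase (0.34, SE 0.11). Lcp1, the plastin of blood cells, was at 8.08, 7.73, 6.27 and 5.64 in mutants, against 5.64, 5.52, 6.14 and 4.98 in controls. As with Coro1a, the set 1 mutants were the highest arrays (difference 1.36, SE 0.46).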

How the data were processed

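The deposited table holds log2 values of 45037 probe sets in the aorta of 4 mutants and 4 controls. The submitters' processing notes name GCOS. How the authors corrected, summarized and normalized the deposited values is not stated there, and their range (0.9 to 15.82) shows the log2 scale. A common scale set before deposit can hide a change shared by all genes.

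The platform annotation gave 1 symbol for 34945 probe sets, several for 932 and none for 9160. The 40% with the lowest mean were left out, which left 27029 probe sets and 12176 genes. Differences (mutant minus control, log2) came from limma 3.58.1 in R 4.3.3, fitted with group and set and with a trend of variance on the mean. Two-sided p-values were adjusted by Benjamini-Hochberg over all 27029, with a threshold of 0.05. The SE is limma's moderated one. The procedure was tried on simulated data with independent noise and added changes larger than most differences given here. That trial does not cover small differences or an array that stands apart. Replicate numbers follow the order of the samples and pair nothing, while the set number comes from the titles.

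The genes, the lists, the alternatives and the tests were chosen with earlier results of these data known. All listed genes are given, with values of every array for those with an unadjusted p under 0.05. Genes with full values beside these, promoters printed and probe sets singled out were chosen after their values were seen. Of the other actin turnover genes, those with the smallest p are named. Marker lists cover smooth muscle, leukocytes, endothelium, fibroblasts, fat and striated muscle. Other cell types, nerve among them, have no list here. Array control probe sets for RNA quality were not analysed here. The number of arrays limits the precision. Alternatives were other filters, scalings, variance models, weights and probe set rules, no set term, and each set or array left out. Figures were drawn with Python 3.11.15.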

Additional observations from a re-analysis of the deposited data

Results flagged for a closer look

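Of 78 groups of 4 arrays looked at, 6 held an array far from the other 3 by Dixon's test, and chance flags about 1 in 20 groups. In 4 of the 6 it was mutant 2. Each group holds arrays of both sets, and all groups reuse the same 8 arrays, so the chance rate is only a rough guide. Limk1 was at 6.65 in mutant 2 and at 4.85 to 5.14 in the other mutants. Limk2 was at 6.77 in mutant 2 and at 6.53 to 6.54 in the others. Tmsb4x was at 14.95 in mutant 2 and at 15.14 to 15.17 in the others, and Srf at 9.54 against 10.21 to 10.34. Among controls, Tmsb10 was at 13.29 in control 2 and at 13.38 to 13.39 in the others. Coro1c was at 11.24 in control 3 and at 11.49 to 11.53 in the others. The second probe set of Coro1a differed between sets in its mutant effect, by -3.16 (set 2 minus set 1, limma interaction, adjusted p = 0.0413). It was at 7.42, 7.87, 4.45 and 4.55 in mutants, against 4.33, 4.41, 4.46 and 4.31 in controls, so that the set 1 mutants alone were high. The brightest probe set of Coro1a gave -2.71 (adjusted p = 0.536).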

How the results depend on the processing

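No gene of the list passed an adjusted p of 0.05 under any of the 20 alternatives run, and the count higher in mutants was 13 to 17. The count at an unadjusted p under 0.05 was 11, and it was 6 in set 1 alone, 3 in set 2 alone and 6 to 13 with each array left out. Set-alone fits hold 4 arrays and so fewer degrees of freedom. Without the set as a block it was 8, and that of the other actin turnover genes was 8 too, against 13 with the block. That of the other genes was also 8 in set 1 alone and 8 in set 2 alone, and 6 to 13 with each array left out. By their brightest probe sets, genes that differed between sets were 4, and 3 to 8 with each array left out. Signs turned for genes near 0. Ssh1 was at -0.06 with median centring, -0.078 as the mean of its probe sets and -0.09 in set 1 alone, and -0.10 to 0.085 with each array left out. Diaph1 was at 0.038 with array weights and 0.10 in set 2 alone, and -0.079 to 0.072 with each array left out. In set 2 alone, Arpc5 was at -0.035 and Srf at 0.085. When probe sets that may match other transcripts were left out, an alternative chosen after seeing the data, Cfl1 was at -0.11 and Tmsb10 at 0.06, no longer at an unadjusted p under 0.05. The only Tmsb10 probe set left then was close to the lowest mean kept, so its value says little about Tmsb10. Over all probe sets, 0 passed adjustment, but 10 did with array weights and 11 without control 3. Median centring moved the median of all probe sets from -0.04 to -0.11. The cause of these changes was not tested.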

Other observations

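The marker means not given above, relative to the mean of all arrays, were as follows. Smooth muscle markers were at -0.08, -0.22, -0.14 and -0.13 in mutants, against 0.18, 0.07, 0.16 and 0.16 in controls. Striated muscle markers were at -1.43, -0.79, 1.11 and 0.65 in mutants, against -1.14, -0.74, 1.79 and 0.54 in controls, so that set 2 was the higher set in both groups. Endothelial markers were at 0.79, 1.55, -0.31 and -0.25 in mutants, against -0.30, -0.02, -0.53 and -0.93 in controls. Fat markers were at 0.68, 2.69, -1.03 and -0.34 in mutants, against -1.20, -0.43, 0.02 and -0.41 in controls. The set 2 mutants were thus not above both set 2 controls in fat markers.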
